A study of Mus musculus with 16 samples.

Results

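The immunoglobulin genes were taken as every row of the count table whose GENCODE M21 gene class was immunoglobulin constant or immunoglobulin variable, 231 of 55536 genes. They comprised 13 constant-region (C) genes and 218 variable-region (V) genes. On GRCm38, 121 lay in the heavy-chain locus (chr12:113254830-116000461), 103 in the kappa light-chain locus (chr6:67555497-70726966) and 7 in the lambda light-chain locus (chr16:19061618-19260859). An antibody pairs heavy chains with light chains. In each developing B cell, 1 V gene per chain is joined to short D or J segments and spliced to a constant gene, and the heavy constant gene sets the isotype: Ighm for IgM, Ighd for IgD, the Ighg genes for IgG, Igha for IgA and Ighe for IgE. B cells hold modest amounts of these transcripts and antibody-secreting plasma cells very large amounts, and visceral fat is known to harbour both, including innate-like B-1 cells.

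Ribosomal RNA-depleted, stranded total RNA was sequenced from the red portion of the gastrocnemius, a hindlimb muscle, and from visceral fat of the same 8 female mice. All ran on wheels for 5 weeks and were then held for 8 days with restricted movement in a small mouse cage. Of these mice, 4 were Cre-Control (131, 137, 138 and 11) and 4 were Conditional MusMyD88-/- (139, 958, 960 and 29), a genotype named for conditional loss of the Toll-like receptor adaptor MyD88 in muscle. The labels used here give neither the age, the strain nor the promoter that drives Cre, so the 16 libraries form 4 groups of 4.

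Total counts were 15203806 to 21747345 in muscle and 13242243 to 19114782 in fat. Myd88 was at 2.04, 2.11, 3.42 and 2.83 CPM (counts scaled to the total count of the library) in muscle of controls 131, 137, 138 and 11, and at 2.24, 2.04, 1.68 and 1.98 CPM in knockouts 139, 958, 960 and 29. The groups overlapped, and the difference did not pass the test (log2 fold change -0.47, SE 0.20, edgeR adjusted p = 0.949). Among the fat libraries, that of mouse 138, a control, was unlike the rest. It held 539 CPM of the urothelial gene Upk1a, against 0.07 to 2.40, and 10210 CPM of the smooth muscle gene Myh11, against 108 to 383. The adipocyte hormone gene Adipoq was at 605 CPM there, against 2077 to 3722. Several results in fat are therefore given with and without that mouse. Where no setting is named, the fat values hold all 8 mice.

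To show which germline segments carried the reads, the last 150 bases of 4 V genes follow, 5′ to 3′ on the coding strand, from GENCODE M21 transcripts on GRCm38. Capitals mark the stretch from the conserved cysteine codon near the end of each segment to its last base, which is the germline part of the third complementarity-determining region (CDR3), where the V gene is joined. Igkv14-126 and Ighv11-2 are among the 5 V genes with counts in all 8 fat libraries, and are the pair named below as background on B-1 cells. Ighv3-6 and Igkv4-72 are shown because most of their counts came from 1 mouse. All 4 stretches lie within the second and last exon of their gene.
Igkv14-126 (chr6:67896493-67896642, + strand): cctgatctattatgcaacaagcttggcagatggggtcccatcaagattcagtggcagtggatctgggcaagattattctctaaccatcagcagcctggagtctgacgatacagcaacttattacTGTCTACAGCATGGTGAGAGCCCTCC
Ighv11-2 (chr12:114048241-114048390, - strand): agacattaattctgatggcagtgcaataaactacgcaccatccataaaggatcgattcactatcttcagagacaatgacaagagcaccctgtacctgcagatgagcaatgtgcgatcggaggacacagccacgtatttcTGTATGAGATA
Ighv3-6 (chr12:114288152-114288301, - strand): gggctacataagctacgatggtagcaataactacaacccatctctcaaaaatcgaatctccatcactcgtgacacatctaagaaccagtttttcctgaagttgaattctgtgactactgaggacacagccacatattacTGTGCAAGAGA
Igkv4-72 (chr6:69226854-69227003, - strand): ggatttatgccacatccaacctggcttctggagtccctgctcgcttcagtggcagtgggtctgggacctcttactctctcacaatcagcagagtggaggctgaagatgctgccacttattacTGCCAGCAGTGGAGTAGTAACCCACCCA

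Reads of 51 bases can be ambiguous between such segments. Among the 218 V genes, 168 shared at least 1 run of 51 bases with another member and 26 shared at least 50% of their runs, so single V gene counts are uncertain to that extent. Igkv14-126 shared no run with any other gene, Ighv3-6 shared 2.62% of its runs with other members, Igkv4-72 shared 23.3%, beside 5.68% with genes outside the members, and Ighv11-2 shared 38.0%. The only close relative of Ighv11-2 in this respect, Ighv11-1, had no count in any library. Of the C genes, Ighm, Igkc, Igha and Ighd shared no run with any gene in either orientation. The IgG genes shared 0.354% (Ighg1) to 5.25% (Ighg2c) of runs with other members, and Iglc2 and Iglc3 shared 7.31% and 10.2%.

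Of the 231 members, 64 had no count in any library, namely Ighe, Iglc4 and 62 V genes. A count in at least 1 fat library was found for 163 members and a count in at least 1 muscle library for 35. Members with a count in all 8 libraries of a tissue numbered 14 in fat and 3 in muscle. Over all libraries the members received 19462 counts in fat, 17003 of them on C genes and 2459 on V genes, and 2349 in muscle, 2319 on C genes and 30 on V genes. They made up 0.00677% to 0.0262% of each fat library and 0.000632% to 0.00310% of each muscle library.

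The summed level of C and V genes was higher in fat than in muscle in 8 of 8 mice. In fat it was 201, 203, 67.7 and 262 CPM in controls 131, 137, 138 and 11, and 92.3, 128, 145 and 131 CPM in knockouts 139, 958, 960 and 29. In muscle it was 8.68, 6.32, 11.7 and 18.3 CPM in the controls and 10.7, 19.9, 15.2 and 31.0 CPM in the knockouts, in the same order. Within a mouse, fat exceeded muscle by 4.24-fold (mouse 29) to 32.2-fold (mouse 137), and the mean over mice was 10.1-fold higher in fat, or 4.77-fold with the TMM scaling factors of edgeR. Without Ighm that ratio of means was 56.8-fold, since Ighm made up most of the muscle sum. Bulk RNA cannot tell more cells of a type from more transcript per cell.

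**Figure D1:**
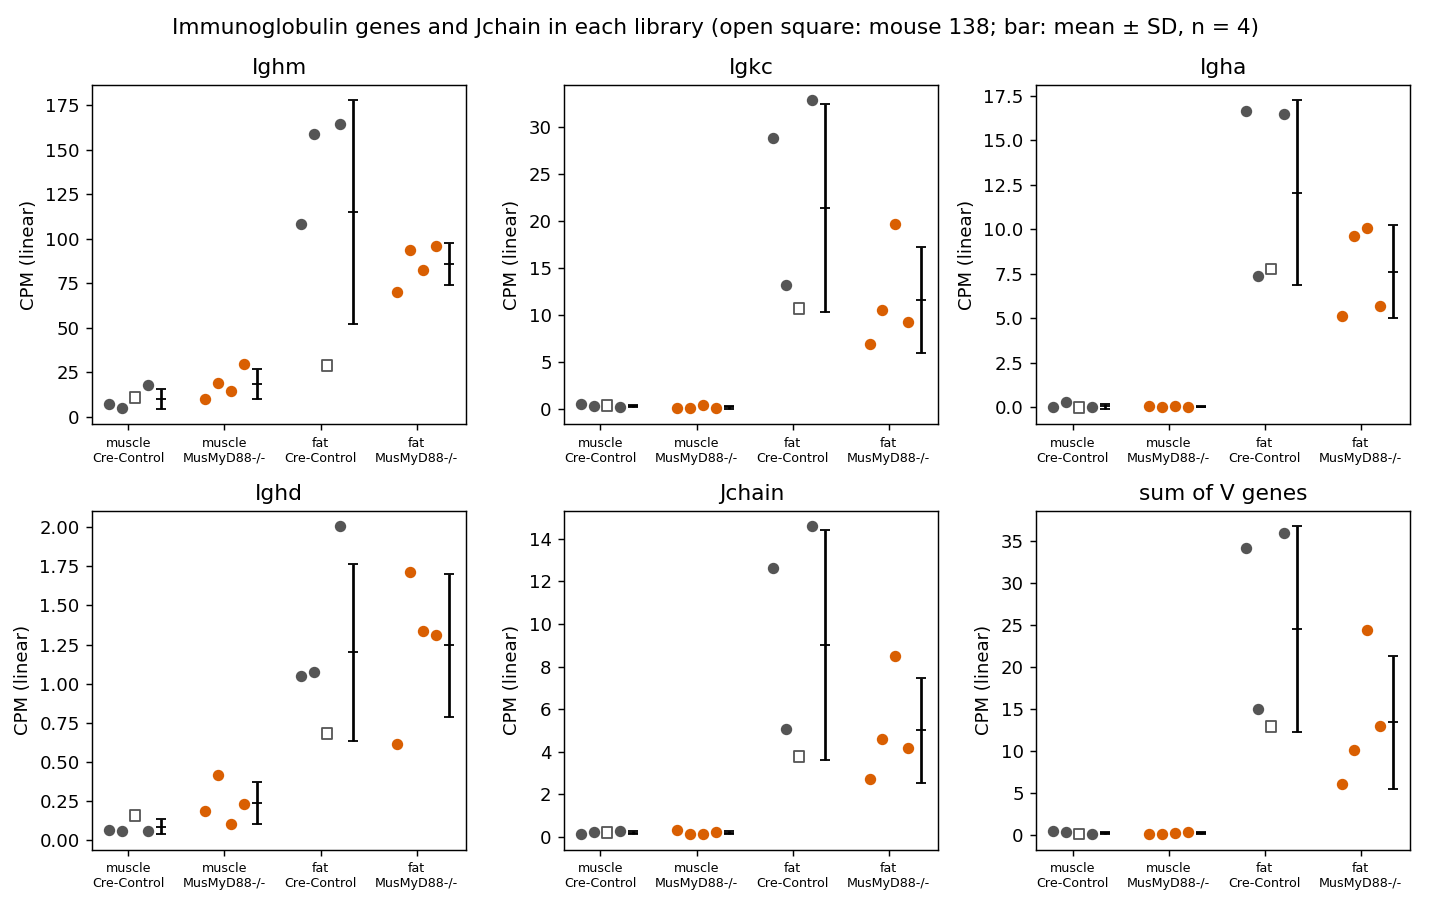
CPM of total counts (linear axes) of Ighm, Igkc, Igha, Ighd, Jchain and the sum of V genes in each of 16 libraries, with the mean ± SD of each group of 4 at its right. Igkc, Igha, Jchain and the V sum lie near 0 in muscle, where Ighm reaches 29.7 CPM, and the open square of mouse 138 is the lowest fat value of Ighm.

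Between tissues, 17084 genes were tested and 13606 (79.6%) differed, 44.0% of all genes tested being higher in fat. Only 9 members had enough counts to be tested, and 9 of 9 were higher in fat. A share of 79.6% called is the background against which that count is to be read, and passing the filter through fat alone favours a fat-high member. Over all genes tested the median log2 difference was 0.16. On total counts alone, without the edgeR scaling factors (TMM), it moved to 1.36, 87.8% rather than 55.2% of the called genes were higher in fat, and the same 9 members were called higher.

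Differences were unequal among the isotypes. Ighm, which both naive B cells and IgM-secreting cells express, was 1.68 log2 units higher in fat (SE 0.36, edgeR adjusted p = 0.000486). It was the only called member with enough counts in muscle to be tested there. The rest entered the test through fat alone and are given as counts over the 8 libraries of a tissue. Igha, the IgA heavy chain made largely by mucosal-type plasma cells, had 1253 counts in fat and 8 in muscle. Igkc, the only kappa constant gene, had 2120 and 34. Ighd, expressed by mature naive B cells, had 152 and 25. The lambda constant genes Iglc1 and Iglc2 had 110 and 197 counts in fat and 2 and 4 in muscle. The V genes Igkv14-126 and Iglv1 had 158 and 89 counts in fat and 1 each in muscle.

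Of the 4 IgG genes, 3 had no count in muscle. Ighg2b was at 0.99, 0.40, 2.94 and 4.82 CPM in fat of controls 131, 137, 138 and 11 and at 2.11, 0.37, 1.06 and 3.19 CPM in fat of knockouts 139, 958, 960 and 29, with none in muscle. Against a floor of 3 counts over the muscle libraries together, its mean in fat was at least 97.8-fold higher. Ighg3 and Ighg1 had means in fat at least 63.3-fold and 7.78-fold over that floor. Ighg2c had 0.00 to 0.55 CPM in muscle and 0.07 to 1.81 CPM in fat.

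Muscle held Ighm with few counts of light chains or V genes. Ighm was at 7.24, 5.12, 10.9 and 17.8 CPM in muscle of controls 131, 137, 138 and 11, and at 10.2, 19.0, 14.3 and 29.7 CPM in knockouts 139, 958, 960 and 29. Igkc was at 0.46, 0.28, 0.32 and 0.18 CPM in those controls and at 0.06, 0.09, 0.41 and 0.09 CPM in those knockouts. The highest Ighm values thus stood beside Igkc values under 0.20 CPM. Cd79a, which encodes a signalling chain of the B-cell receptor, had 3 counts over all muscle libraries and 42 over all fat libraries, of which mouse 138 had 0. Other B-cell genes were low but present in muscle, with 21 counts of Ms4a1, 19 of Cd79b, 86 of Cd37, 77 of Btk and 113 of Bank1 over the 8 libraries. V genes of all 3 loci together gave 1 to 8 counts per muscle library, against 89 to 654 in fat.

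Set per kilobase of exon, so that genes of different length can be compared, Ighm exceeded Igkc by 18.3-fold over the pooled muscle counts (95% exact interval 13.1 to 26.5, from 2209 and 34 counts). In fat that ratio was 1.67 (1.6 to 1.75, from 12580 and 2120 counts). Single fat libraries ranged from 0.764 to 3.39. Single muscle libraries ranged from 4.43 to 91.0, but these divide by 1 to 8 Igkc counts each and are imprecise. These intervals cover counting error only. All heavy constant genes over all light constant genes, per kilobase, stood at 3.26 (mouse 131) to 65.6 (mouse 29) in muscle and at 0.962 to 2.87 in fat. The light-chain counts behind the muscle ratios are few, 1 to 10 per library. The muscle Ighm level was therefore not accompanied by light chains as in fat, and its source was not tested.

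**Figure D2:**
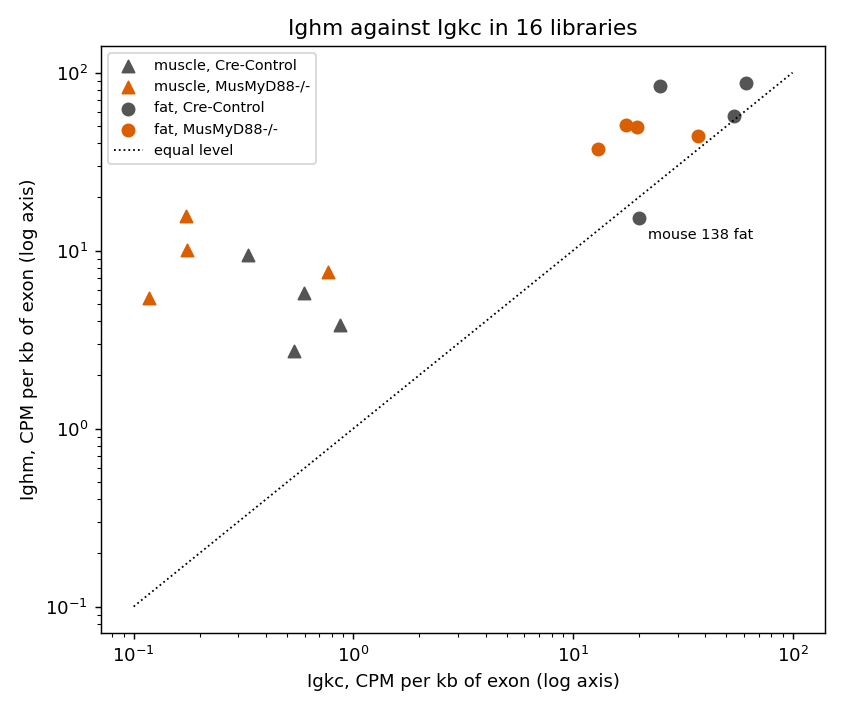
Ighm against Igkc in CPM per kilobase of exon (both axes log) for 16 libraries, with a dotted line where both are equal. Fat libraries (circles) lie near the line, with ratios of 0.764 to 3.39, and muscle libraries (triangles) lie above it, with ratios of 4.43 to 91.0 that rest on 1 to 8 Igkc counts.

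Within the heavy chains of fat, IgM was the leading isotype in 8 of 8 libraries. Ighm made up 86.5%, 94.1%, 71.4% and 89.3% of the heavy constant level per kilobase in controls 131, 137, 138 and 11, and 92.1%, 90.6%, 88.7% and 92.3% in knockouts 139, 958, 960 and 29. Igha came second, at 8.11% ± 4.48 (SD, n = 4) in controls and 5.71% ± 1.73 (SD, n = 4) in knockouts. Ighd was at 1.05% ± 0.451 (SD, n = 4) and 1.28% ± 0.361 (SD, n = 4). Mouse 138 had the lowest Ighm share and the highest Igha (13.6%), Ighg2b (5.13%) and Ighg2c (6.38%) shares, over 570 heavy constant counts, where the other fat libraries had 1150 to 2851. The same library stood apart in Upk1a and Myh11 and held 226 CPM of the plasma cell and epithelial gene Sdc1, against 13.2 to 20 in the others, and the part of this in its isotype mix was not tested.

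**Figure D3:**
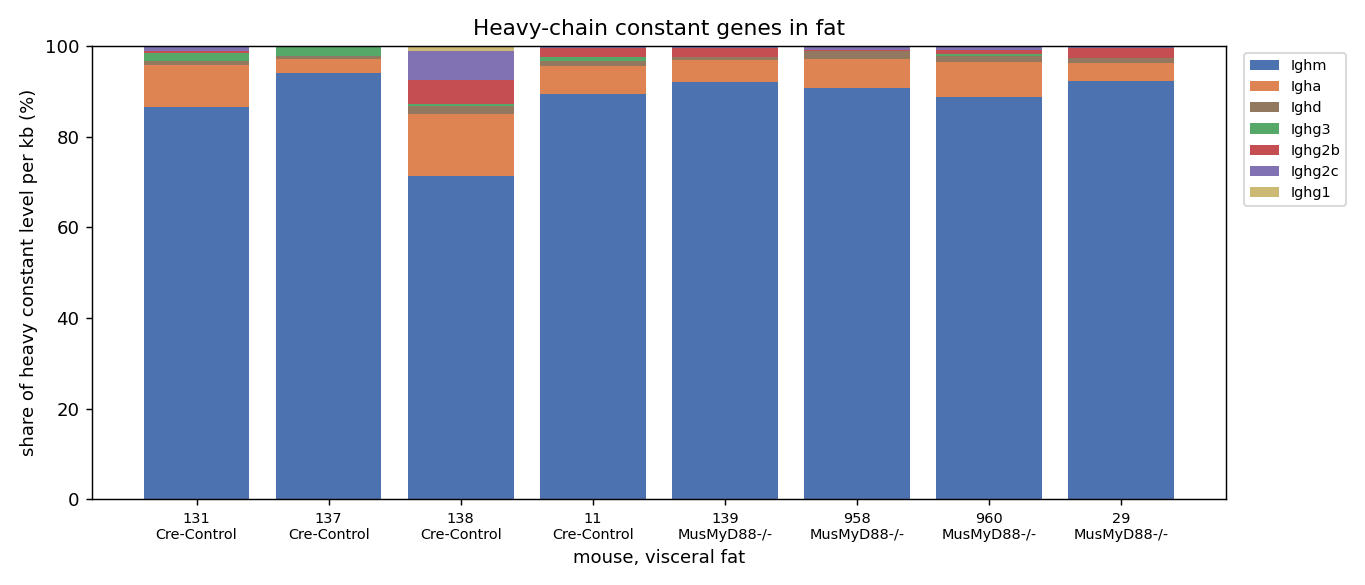
Share of each heavy constant gene in the summed heavy constant level per kilobase (percent, stacked bars from 0) in fat of 8 mice. Ighm fills 86.5% to 94.1% in 7 mice and 71.4% in mouse 138.

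Among light chains in fat, kappa made up 79.5% to 92.2% of the constant level per kilobase, and lambda the rest. Iglc2 was at 4.60 CPM in control 131, against 0.45 to 0.94 CPM in the other controls, and at 0.34, 0.37, 2.62 and 1.56 CPM in knockouts 139, 958, 960 and 29. Iglc1 spanned 0.15 to 2.14 CPM over the controls and 0.20 to 2.06 over the knockouts, and Iglc3 at 0.40 to 1.78 and 0.28 to 0.52 CPM. The ranges of the genotypes overlapped for each of the 3. For Iglc3 they overlapped through control 137 alone, the other controls being above every knockout. Iglc3 had 62 counts in control fat and 26 in knockout fat, too few to be tested.

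In fat, no member passed the test between genotypes over all 8 mice. Of 16323 genes, 1 (0.00613%) passed edgeR's adjusted threshold of 0.05. Of 7 members tested, 0 passed it, 0 had an unadjusted p under 0.05 (7.99% of all genes did), and DESeq2 and limma voom called 0. Log2 fold changes were below 0 for 6 of 7, beside 52.1% of all genes, with a median of -0.46, beside -0.01 over all genes tested.

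Ighm shows how mouse 138 bears on this. It was at 108, 159, 28.8 and 164 CPM in fat of controls 131, 137, 138 and 11, and at 70.3, 93.5, 82.7 and 96.3 CPM in knockouts 139, 958, 960 and 29. The knockouts lay below 3 controls and above the remaining one, mouse 138. With all mice the log2 fold change was -0.45 (SE 0.49, edgeR adjusted p = 0.794), and without mouse 138 it was -0.79 (SE 0.12, adjusted p = 0.105). An exact two-sided permutation test of log2(CPM + 0.5) for Ighm gave p = 0.886 with all mice and p = 0.0286 without mouse 138, the smallest value that 35 assignments allow, 2 of 18 such tests computed and not adjusted. Over the 18 alternatives the adjusted p for Ighm ran from 2.56e-05 to 0.955, and it passed in 2 of them, both without mouse 138 (DESeq2, 2.56e-05, and edgeR with no filter on low counts, 0.0114).

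Without mouse 138, 6 of 16579 genes (0.0362%) passed the adjusted threshold with edgeR, and 0 of 12 members tested. An unadjusted p under 0.05 was reached by 5 of the 12, beside 16.6% of all genes, and 11 of 12 log2 fold changes were below 0, beside 48.4% of all genes. Groups did not overlap for 3 of 12 members, Ighm, Ighg3 and Iglv1, all lower in knockouts, beside 4.34% of genes with knockouts lower. Ighg3 and Iglv1 were not tested with all mice, and passed the filter on counts here through the 3 controls left. Such a filter favours members lower in knockouts, so these member counts cannot be read against the shares of all genes. Leaving out a library because it stands apart was a choice made after the data were seen.

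Ighg3, the IgG3 heavy chain made largely in responses to polysaccharides, was at 2.72, 4.49, 0.30 and 2.21 CPM in fat of controls 131, 137, 138 and 11, and at 0.07, 0.00, 0.50 and 0.00 CPM in knockouts 139, 958, 960 and 29. All knockouts lay under the 3 controls other than mouse 138, whose value fell within the knockout range. Too few libraries had counts for the test of all mice. Without mouse 138 its log2 fold change was -4.29 (SE 0.77, edgeR adjusted p = 0.140), and DESeq2 called it there (adjusted p = 0.0453), the range over its 9 alternatives being 0.0453 to 0.919. It had 52, 67, 4 and 33 counts in the controls and 10 in the knockouts together. Without mouse 138 it thus passed the filter through the controls alone, which favours a lower value in knockouts.

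For Igkc the fat levels were 28.8, 13.2, 10.6 and 32.8 CPM in controls 131, 137, 138 and 11, and 6.89, 10.4, 19.7 and 9.26 CPM in knockouts 139, 958, 960 and 29. Controls 131 and 11 were above every knockout, while knockout 960 was above controls 137 and 138. Its log2 fold change was -0.89 (SE 0.49, edgeR adjusted p = 0.647), and -1.15 (SE 0.46, adjusted p = 0.286) without mouse 138. Igha followed the same mice, at 16.6, 7.37, 7.78 and 16.5 CPM in those controls and 5.11, 9.62, 10.1 and 5.69 CPM in those knockouts. The log2 fold change of Igha was -0.67 (SE 0.40, adjusted p = 0.666), and -0.88 (SE 0.36, adjusted p = 0.286) without mouse 138. Ighd and Ighg2b, at 0.05 (SE 0.42) and -0.36 (SE 0.78), had intervals that spanned 0 widely.

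**Figure D4:**
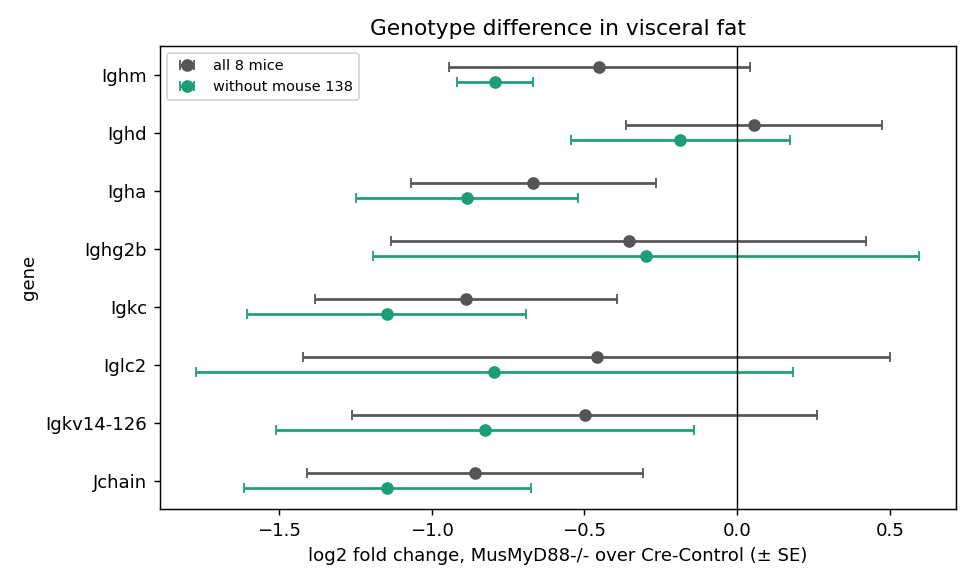
Log2 fold change (MusMyD88-/- over Cre-Control in fat, ± SE) of 7 immunoglobulin genes and Jchain, from edgeR with all 8 mice (grey) and without mouse 138 (green). Ighm moves from -0.45 to -0.79 and its SE from 0.49 to 0.12 when mouse 138 is left out, and no point passes the adjusted threshold.

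In muscle, 2 of 14183 genes (0.0141%) passed between genotypes. Ighm was the only member with enough counts to be tested, and it did not pass. Its log2 fold change was 0.77 (SE 0.49, edgeR adjusted p = 0.949, unadjusted p = 0.165), with 2 of 4 knockouts above all controls. Thus 0 of 1 member passed, 0 at an unadjusted p under 0.05 (5.04% of all genes), and 0 with DESeq2 or limma voom. The summed level was 11.3 ± 5.17 CPM (SD, n = 4) in controls and 19.2 ± 8.70 CPM (SD, n = 4) in knockouts, a difference carried by Ighm, since the remaining members summed to 0.976 ± 0.449 and 0.907 ± 0.341 CPM (SD, n = 4 each). Beside it, 9 of 9 macrophage genes tested had log2 fold changes above 0 in muscle, and 0 were called. Their median was 0.43, beside 0.003 over all genes tested, and their part in the Ighm values was not tested.

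Whether the genotype difference itself differed between tissues was tested as an interaction. Of 17084 genes, 0 passed with edgeR (0%), 1229 (7.19%) had an unadjusted p under 0.05, and DESeq2 called 7. Among 9 members, 0 passed, 0 had an unadjusted p under 0.05 and DESeq2 called 0. For Ighm, with log2 fold changes of -0.45 in fat and 0.77 in muscle, the interaction was -1.22 log2 units (SE 0.70, adjusted p = 0.723). For Ighd it was -1.29 (SE 0.76, adjusted p = 0.732). Without mouse 138, 0 of 12 members passed with edgeR, and 2 had an unadjusted p under 0.05, beside 11.2% of all genes. These were Ighm at -1.58 (SE 0.57, adjusted p = 0.372) and Ighd at -2.02 (SE 0.83, adjusted p = 0.398). Among the members, only Ighm had enough counts in muscle by itself to be tested there. The others entered the interaction through fat alone, so their counts cannot be read against the shares of all genes. Ighd had 6 counts in muscle of all controls together and 19 in muscle of all knockouts, so its interaction rests on few counts.

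Genes of B and plasma cells outside the antibody loci were read from lists. Between tissues, 7 of 9 B-cell genes, 11 of 11 plasma cell genes and 10 of 10 macrophage genes tested were higher in fat, beside 44.0% of all genes, and 5 of 5 blood genes were lower, beside 35.7%. In muscle by itself, 3 B-cell, 6 plasma cell and 9 macrophage genes had enough counts to be tested. The rest entered through fat alone, which favours a fat-high gene, and the share of all genes does not correct for this. Of 18 B-cell genes, 8 were tested between genotypes in fat and 0 passed, 5 being below 0 (median -0.18), beside 52.1% of all genes. Without mouse 138, 9 were tested and 0 passed, 8 being below 0 (median -0.18), beside 48.4% of all genes. Summed, the B-cell genes spanned 27.9 to 37.2 CPM over the controls and 22.0 to 40.1 over the knockouts, so the groups overlapped. Cd79b, a B-cell receptor signalling chain, was at 0.60 to 1.15 and 0.61 to 1.19 CPM, and Ms4a1 (CD20) at 0.53 to 1.20 and 0.41 to 1.42 CPM. Levels this low, mostly under 20 counts per library, limit what can be read from them.

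Of 15 plasma cell genes, 11 were tested between genotypes in fat and 0 passed. Jchain, which links IgM and IgA into polymers, was at 12.6, 5.09, 3.78 and 14.6 CPM in controls 131, 137, 138 and 11, and at 2.73, 4.62, 8.48 and 4.19 CPM in knockouts 139, 958, 960 and 29. The mice with the most Jchain were those with the most Igkc and V gene counts (131, 11 and 960). Its log2 fold change was -0.86 (SE 0.55, edgeR adjusted p = 0.671), and -1.15 (SE 0.47, adjusted p = 0.289) without mouse 138. Jchain entered the test between tissues through fat alone, and had 906 counts in fat and 31 in muscle. Per kilobase, Igha stood at 1.06 to 1.96 times Jchain in fat.

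Xbp1, a factor of secretory cells that adipocytes also express, was at 108 to 158 CPM in control fat and 166 to 220 CPM in knockout fat. Its log2 fold change was 0.49 (SE 0.14, edgeR adjusted p = 0.588) and did not pass. Its unadjusted p was 0.00777, where 7.99% of all genes had one under 0.05. Prdm1, which drives plasma cell differentiation, had a log2 fold change of 0.61 (SE 0.32, adjusted p = 0.634). Tnfrsf17, the plasma cell survival receptor BCMA, was at 0.19 to 0.82 CPM in fat, and the coactivator Pou2af1 at 0.27 to 0.94 CPM. Mzb1, a chaperone of antibody assembly, was at 0.00 to 0.20 CPM in fat and at 0.10 to 0.68 CPM in muscle, and so did not accompany Jchain.

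Genes of V(D)J recombination and of lymphoid tissue were read as well. Rag1 of the recombinase had no count in any library. Of 9 lymph node vessel and stroma genes, 4 had no count in fat, Glycam1 and Ccl21a among them. Those tested between tissues, 3 of 3, were higher in fat, beside 44.0% of all genes. Only 1 of the 3, Clu, had enough counts in muscle by itself. Without mouse 138 Clu did not pass between tissues (log2 fold change 0.33, SE 0.18, edgeR adjusted p = 0.102). The others, including the vessel gene Chst4, entered through fat alone. The B-cell chemokine gene Cxcl13 was at 18.7 CPM in fat of control 131 and at 0.89 to 4.10 CPM in the other 7. T-cell Cd3e was at 0.34 to 1.06 CPM in fat. The cytokine genes Tnfsf13b (BAFF) and Tnfsf13 (APRIL), which sustain B and plasma cells, had log2 fold changes in fat of 0.11 (SE 0.26) and 0.17 (SE 0.25), with adjusted p of 0.911 and 0.860.

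Of the antibody transport genes, Fcgrt did not pass between genotypes in fat. Fcgrt, the neonatal Fc receptor that protects IgG from breakdown, spanned 123 to 196 CPM over the controls and 162 to 209 over the knockouts (log2 fold change 0.18, SE 0.21, edgeR adjusted p = 0.812). Pigr, the epithelial receptor that exports IgA and IgM, spanned 0.27 to 7.10 CPM over the controls and 0.41 to 9.69 CPM over the knockouts. The 5 blood genes of fat summed to 127 to 304 CPM over the controls and 97.4 to 188 over the knockouts, with 5 of 5 log2 fold changes below 0. The 10 macrophage genes summed to 795 to 1221 and 601 to 1184 CPM, with 9 of 10 below 0. Both counts stand beside 52.1% of all genes. No transport, blood or macrophage gene of these lists passed with all mice. Without mouse 138 the blood median was -1.04, beside 0.01 over all genes tested. There 10 of 10 macrophage genes were below 0, beside 48.4% of all genes. In that setting DESeq2 called the haemoglobin gene Hba-a2 (-1.26, adjusted p = 0.0130), among 330 of 16579 genes called. The part of blood and macrophages in the immunoglobulin levels was not tested.

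V gene counts in fat differed from mouse to mouse. A count in fat was found for 152 of 218 V genes, 5 of them in all 8 libraries and 37 in a single library. Heavy V genes with a count numbered 18 to 47 per library and kappa V genes 12 to 43. The 8 V genes with the highest mean CPM took 28.3% of all V counts in fat: Igkv14-126, Ighv3-6, Iglv1, Iglv2, Ighv11-2, Igkv4-72, Ighv6-3 and Igkv6-15.

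Igkv14-126, whose germline end is printed above, led them at a mean of 1.21 CPM. It was at 2.83, 0.34, 0.45 and 1.94 CPM in controls 131, 137, 138 and 11, and at 0.27, 1.27, 0.95 and 1.63 CPM in knockouts 139, 958, 960 and 29. As the leading kappa V gene it held 18.5% of kappa V counts in mouse 131 (95% exact interval 14.2 to 23.4), 27.4% in mouse 958 (16.9 to 40.2) and 29.2% in mouse 29 (20.1 to 39.8). Both genotypes were among those mice. Its genotype log2 fold change was -0.50 (SE 0.76, edgeR adjusted p = 0.863).

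Ighv11-2 was likewise present in all 8 fat libraries, at 0.63, 0.27, 0.30 and 1.54 CPM in controls 131, 137, 138 and 11 and at 0.41, 0.30, 0.28 and 0.19 CPM in knockouts 139, 958, 960 and 29. Its share of heavy V counts ran from 2.25% in mouse 960 to 12.8% in mouse 139, where it rested on 6 of 47 counts. It had no count in muscle. As background, Ighv11-2 and Igkv14-126 encode the classic pairing of B-1 cell antibodies that bind phosphatidylcholine, but counts of separate chains do not show pairing in a cell.

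Other V genes were concentrated in single mice. Ighv3-6 was at 6.96 CPM in fat of control 11 and at 0.00 to 0.56 CPM in the other 7 libraries, and that library held 79.4% of its fat counts. There it made up 42.3% of heavy V counts (95% exact interval 36.0 to 48.7, 104 of 246 counts). Igkv4-72 was at 3.21 CPM in the same library and at 0.00 to 0.15 CPM in the others, with 90.6% of its fat counts in that mouse and 17.6% of its kappa V counts. The germline CDR3 stretches in capitals above have 11 bases for the heavy gene Ighv3-6 and 28 for the kappa gene Igkv4-72. The other heavy and kappa genes printed, Ighv11-2 and Igkv14-126, have 11 and 26. These lengths thus differed by chain and say nothing about mouse 11.

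Of 42 V genes with at least 20 counts in fat, 23 had over 50% of them in 1 library. The leading heavy V gene differed in all 8 mice: Ighv5-9 in 131, Ighv1-11 in 137, Ighv8-8 in 138, Ighv3-6 in 11, Ighv14-4 in 139, Ighv13-2 in 958, Ighv6-6 in 960 and Ighv14-3 in 29. Their shares of heavy V counts were 12.1%, 14.4%, 8.97%, 42.3%, 12.8%, 11.4%, 18.9% and 10.4% in that order. In mouse 139 Ighv14-4 was tied with Ighv11-2 at 6 counts. Ighv1, the largest heavy family with 53 genes, had the most counts of any family in fat, 418.

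Evenness was summarised by the effective number of heavy V genes, the reciprocal of the sum of squared shares. It was 17.6, 13.9, 22.9 and 4.64 in controls 131, 137, 138 and 11, and 12.3, 18.0, 11.2 and 17.2 in knockouts 139, 958, 960 and 29. Mouse 11 was lowest through Ighv3-6, and mouse 138 highest. These numbers rest on 47 to 290 counts and are held down by low depth, so no order was read among the remaining mice.

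**Figure D5:**
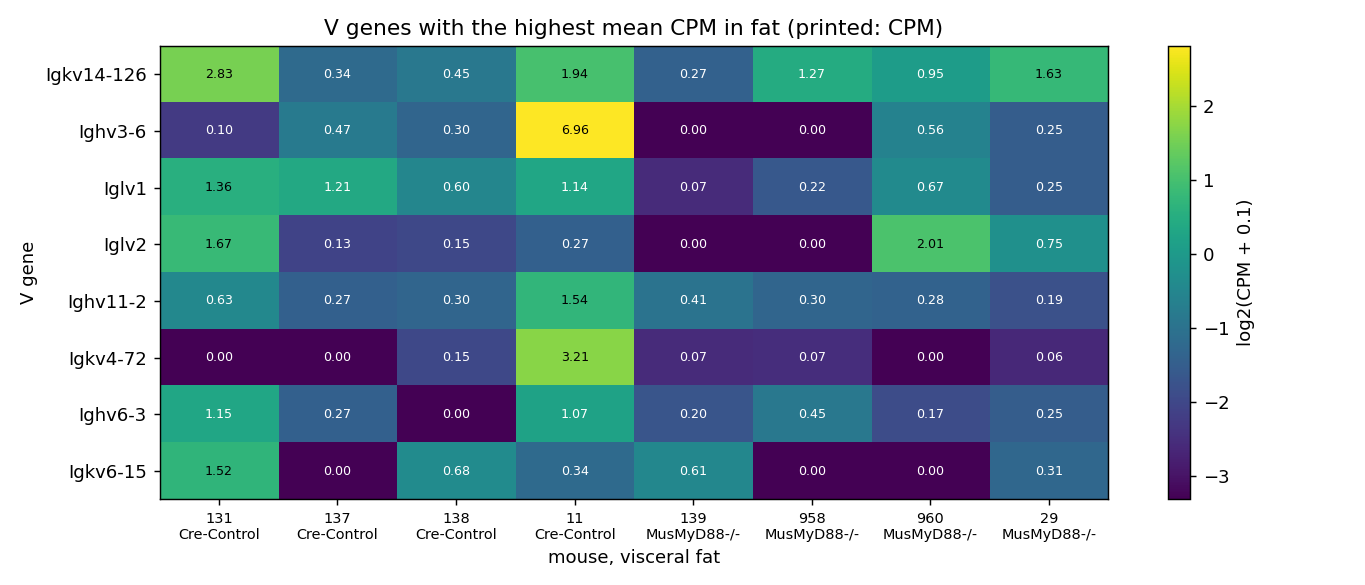
CPM (printed) and log2(CPM + 0.1) (colour) of the 8 V genes with the highest mean in fat, by mouse. Ighv3-6 (6.96 CPM) and Igkv4-72 (3.21 CPM) peak in mouse 11, while Igkv14-126, Iglv1 and Ighv11-2 have counts in every mouse.

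The lambda V genes were few and uneven as well. Iglv1 was at 1.36, 1.21, 0.60 and 1.14 CPM in controls 131, 137, 138 and 11, and at 0.07, 0.22, 0.67 and 0.25 CPM in knockouts 139, 958, 960 and 29. Only knockout 960 reached the control range. Without mouse 138 its log2 fold change was -2.0 (SE 0.51, edgeR adjusted p = 0.171), and with all mice it had too few counts to be tested. Without mouse 138 it passed the filter through the remaining controls, which favours a lower value in knockouts. Iglv2 spanned 0.13 to 1.67 CPM over the controls and 0.00 to 2.01 over the knockouts. Iglv1 and Iglv2 shared 21.4% and 20.3% of their 51-base runs with each other's family, so reads may be split between them.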

How the data were processed

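The authors deposited raw counts per gene for 16 libraries, one table of whole numbers with Ensembl mouse identifiers. The submitters' processing notes list GRCm38, DESeq2 1.22.2, featureCounts 1.6.3 and STAR 2.7.0f, without saying what each did. The sources used here do not give how reads matching several genes were counted. GENCODE M21 held each of the 55536 identifiers. Levels are CPM of total counts, and levels per kilobase divide by the union of exons. Genes were tested with edgeR 4.0.16 in R 4.3.3 (quasi-likelihood, TMM, filterByExpr, Benjamini-Hochberg over all genes tested, threshold 0.05), within each tissue for genotype and over all 16 libraries for tissue and interaction. DESeq2 1.42.0 and limma 3.58.1 (voom) were alternatives, beside other scaling, filters, leaving out each mouse and a mouse block. Subject numbers pair muscle and fat of 1 animal, and deviations of the pairs correlated from -0.017 to 0.13 over 15859 genes. On data simulated for the fat comparison (16157 genes), edgeR recovered 34% of changes of 1 log2 unit and 85% of changes of 2. The changed genes were drawn only from those above a floor on mean count. Ighd and Igkv14-126 lay below that floor in fat, so these rates do not cover them. Within a tissue the tested replicates are separate mice. The tests of tissue and interaction hold both libraries of each mouse and, except with the mouse block, treat them as independent.

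Members, lists and tests were chosen with earlier results of these data known. Genes named were all C genes, the 8 V genes highest in fat, members past a threshold, V genes leading a library and set list genes. The leading V genes in fat were taken as those with the largest count in each library. Myd88, Sdc1 and genes in the closing observations were named after their values were seen. Intervals are exact (Clopper-Pearson, 95%), and the floor is 3 counts. Some list genes are not reported here.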

Additional observations from a re-analysis of the deposited data

Results flagged for a closer look

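In 48 groups of 4 libraries examined, 7 held a library set far from the other 3 by Dixon's criterion at the 95% level. The V genes examined were those with the highest mean CPM in fat, a choice that favours genes high in 1 library. Sums also overlap their members and many counts are low, so 7 of 48 cannot be set against the nominal 1 in 20. In control fat, mouse 11 stood out for Ighv3-6 (6.96 CPM, others 0.10 to 0.47) and Igkv4-72 (3.21 CPM, others 0.00 to 0.15), and mouse 131 for Iglc2 (4.60 CPM, others 0.45 to 0.94) and Iglv2 (1.67 CPM, others 0.13 to 0.27). In knockout fat, mouse 960 stood out for Ighg3 (0.50 CPM, others 0.00 to 0.07) and Iglc1 (2.06 CPM, others 0.20 to 0.37), and mouse 139 for a low sum of C genes (86.3 CPM, others 118 to 121). Lambda genes of fat accounted for 3 of the 7, in mice 131 and 960.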

How the results depend on the processing

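In fat, the number of genes passing between genotypes (1) was 6 in 1 fit of all 16 libraries, 72 with DESeq2, 0 with limma voom and 0 to 6 without 1 mouse. Without mouse 138 it was 330 with DESeq2, 5 with voom and 161 with no filter, and members called were 2 with DESeq2 (Ighm and Ighg3) and 1 with no filter (Ighm). Ighg3 had passed the filter through controls alone. The combinations without mouse 138, and sums without Ighm, were chosen after seeing the data. In muscle the number (2) was 9 with DESeq2, 1 at 1 CPM or more in at least 4 libraries, 80 with no filter and 1 to 10 without 1 mouse. Between tissues, members called (9) were 37 with no filter, where more members were tested, and 9 to 12 without 1 mouse. The interaction (0 genes) gave 7 with DESeq2 and 7 with mouse as a replicate block and without mouse 138. With the replicate block alone, 13436 genes and 9 members were called between tissues and 0 for the interaction, and the block changed no other call. At 1 CPM or more in at least 4 libraries, 6 members were tested and 6 called between tissues. On total counts alone 15549 rather than 13606 genes were called between tissues.

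The log2 ratio of mean summed CPM in muscle (0.77, knockout over control) was -0.088 for V genes only and -0.10 without Ighm. Its range was 0.44 to 1.11 without 1 mouse. In fat it was -0.56, and -0.84 to -0.34 without 1 mouse. Fat over muscle (3.34) was 2.25 with TMM factors, 6.54 for V genes only and 5.83 without Ighm. Signs of uncalled differences in fat changed for 4 genes. Ighg2b gave 0.007 with voom without mouse 138 and -0.84 to 0.35 without 1 mouse, and Ighd gave -0.19, -0.20 and -0.18 without mouse 138 (DESeq2, voom, no filter) and -0.19 to 0.39 without 1 mouse. Iglc2 ranged from -1.20 to 1.08 and Igkv14-126 from -0.83 to 0.22, both turning positive without mouse 131. The causes were not tested. In muscle, low levels left only Ighm with enough counts to be tested between genotypes.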

Other observations

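Ighv12-3 and Igkv4-91, the other classic heavy and light chains of phosphatidylcholine-binding B-1 cells, were looked up after the values of Igkv14-126 were seen. Igkv4-91 ranked ninth among V genes in fat, spanning 0.00 to 0.80 CPM over the controls and 0.00 to 1.0 over the knockouts. It was the kappa V gene with the second-largest share in mice 958 (16.1%, 95% exact interval 8.02 to 27.7) and 960 (10.7%, 6.44 to 16.3), and had no count in mice 138, 139 and 29. Ighv12-3 had 0 to 5 counts per fat library.

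Outside the members, the 14 joining (J) genes of the antibody loci received 114 counts in fat and 9 in muscle, the 19 diversity (D) genes 1 and 0, and the 158 V pseudogenes 10 and 0. Bank1, a B-cell scaffold that other cells also express, was at 5.21 to 9.77 CPM in control fat and 5.73 to 11.0 CPM in knockout fat. The V genes made up 6.57% to 19.1% of immunoglobulin counts in fat and 0.234% to 4.55% in muscle.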
